A study of Mus musculus with 12 samples.

Results

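The genes described here move cholesterol out of cells, store it as ester or free it in lysosomes. They are the 10 genes Abca1, Abcg1, Abcg5, Abcg8, Scarb1, Npc1, Npc2, Lipa, Soat1 and Soat2, taken by symbol from 55357 genes in a table of liver read counts. Each gene was found once, and all 10 passed the filter on low counts that left 17358 genes for testing, so no gene of the set was lost. Their lowest count in a library was 109, for Soat1 in a WT mouse on chow.

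Liver RNA came from male C57BL/6J mice, which started the diet at 7 weeks of age and were killed at 13 weeks, after 6 weeks on it. All mice carried the floxed Ppara allele, and the KO mice also carried Cre under the albumin promoter, which removes PPARα in hepatocytes and leaves it in the other liver cells. The diet was either chow or CDAHFD, a diet rich in fat that lacks choline and has defined L-amino acids in place of protein. There were 4 libraries of WT mice on chow (WT chow), 3 of WT mice on CDAHFD (WT CDAHFD), 2 of KO mice on chow (KO chow) and 3 of KO mice on CDAHFD (KO CDAHFD). The methods of the study give another number of mice for a group than these libraries show. The groups here are those of the labels. Nothing in the labels says that each library came from a mouse of its own, so the p-values measure the spread between libraries.

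Liver cells take up cholesterol in lipoproteins and release it into blood or bile. LIPA, the lysosomal acid lipase, splits the cholesteryl esters that arrive in lysosomes, NPC2 binds the freed sterol and hands it to NPC1, and NPC1 passes it out through the lysosomal membrane. SOAT1 and SOAT2 turn free cholesterol back into ester, with SOAT2 the hepatocyte and intestinal enzyme and SOAT1 the enzyme of macrophages and most other cells. ABCA1 loads cholesterol onto lipid-poor apolipoprotein A-I, ABCG1 onto larger HDL, and the pair ABCG5 and ABCG8 forms a single transporter that secretes sterols into bile. SCARB1 takes up cholesteryl ester from HDL. Abca1, Abcg1, Abcg5 and Abcg8 are known targets of LXR, the receptor for oxysterols.

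In GENCODE M21 on GRCm38, Abcg5 (chr17:84658234-84683011, minus strand) and Abcg8 (chr17:84676302-84700333, plus strand) lie head to head and share 82 exonic bases. Abca1 lies at chr4:53030787-53159895, Abcg1 at chr17:31057675-31117988 and Scarb1 at chr5:125277087-125341094. Of the lysosomal genes, Lipa lies at chr19:34492318-34527474 and Npc2 at chr12:84754562-84773152. Soat1 lies at chr1:156424525-156474331 and Soat2 at chr15:102150526-102163469. All are protein-coding, as is Npc1. The libraries were not directional, so a read in the bases shared by Abcg5 and Abcg8 cannot be given to either by strand.

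Promoter windows of RefSeq on GRCm38.p6, which run from 250 bases before a gene start to 50 after it, were found for 6 of the 10 genes (7 windows, with 2 for Abcg8). The stretch between the starts of Abcg5 and Abcg8 is shown because both genes fell on CDAHFD in WT liver and it is the whole sequence between the Abcg5 start and the nearer of 2 annotated Abcg8 starts, at 84683121. The other Abcg8 start, at 84676302, lies within Abcg5, and its window held none of the motifs. It is chr17:84683012-84683120, read on the plus strand (the Abcg8 strand), with matches to GATAA on either strand in capitals.
Abcg5 to Abcg8: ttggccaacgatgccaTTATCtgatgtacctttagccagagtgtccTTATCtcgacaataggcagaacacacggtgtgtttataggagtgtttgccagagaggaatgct
The second sequence is the 160 bases before the start of Abca1, shown because it held a match to a loose form of the LXR element. It is chr4:53159896-53160055, read on the minus strand (the gene's strand), with matches to the E-box CACGTG and to the loose form of the LXR element in capitals.
Abca1 upstream: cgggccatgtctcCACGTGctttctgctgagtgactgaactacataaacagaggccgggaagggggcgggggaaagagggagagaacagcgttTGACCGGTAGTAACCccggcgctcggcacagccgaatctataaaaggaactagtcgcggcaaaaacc

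The windows were searched 3 times, on both strands. The first search used 6 motifs. The E-box is in 7.15% of all 32851 windows and, of the 10 genes, in that of Abca1. The other 5 had no match in the 7 windows, and these were the CLEAR element (0.326% of all windows), which contains the E-box, the strict LXR element DR4 (0.0152%), the PPAR element DR1 (0.0396%), the D-box TTATGTAA (0.938%) and the sterol element TCACCCCAC (0.551%). The second search added the HNF4 element CAAAGTCCA (0.475%), TGATAA (9.05%) and a loose LXR element (0.0883%), and none of these matched. For the third, TGATAA was shortened to GATAA and the loose LXR element by 1 base. GATAA is in 25.4% of all windows and in those of Abcg5, Abcg8 and Npc2, and the shortened LXR element is in 0.207% and, of the 10 genes, in that of Abca1. Because the letters were cut until they matched, these matches describe the sequence and carry no weight.

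Levels are given as CPM, counts scaled to TMM-adjusted library size, and tests are edgeR's quasi-likelihood tests with Benjamini-Hochberg adjustment over all 17358 genes. Total counts ran from 29906785 to 43551003. Ppara itself had a mean of 170.1 CPM in WT chow (SD 72.3, n = 4), 69.5 in WT CDAHFD (SD 8.75, n = 3), 26.5 in KO chow (SD 17.1, n = 2) and 36.3 in KO CDAHFD (SD 15.6, n = 3). It was lower in KO chow than in WT chow (log2 fold change -2.68, SE 0.50, adjusted p = 0.00111), while KO CDAHFD against WT CDAHFD did not pass (-0.94, SE 0.42, adjusted p = 0.547). Ppara was also lower in WT CDAHFD than in WT chow (-1.29, SE 0.40, adjusted p = 0.0163). That call was lost without WT CDAHFD replicate 1 or WT chow replicate 3. The libraries also differed in the time-of-day genes. A clock score, the mean log2 level of 8 genes such as Dbp and Per1 less that of 4 genes such as Arntl, was above 0 in WT chow replicates 3 and 4 (2.71 and 3.03), KO chow replicate 2 (1.21) and KO CDAHFD replicate 3 (3.49). It was between -3.28 and -0.89 in the other 8 libraries. Ppara was higher in the libraries with a score above 0 within WT chow, KO chow and KO CDAHFD. The defining hepatocyte genes were present in every library, with a summed level of 7 genes between 39370 and 97250 CPM.

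**Figure D1:**
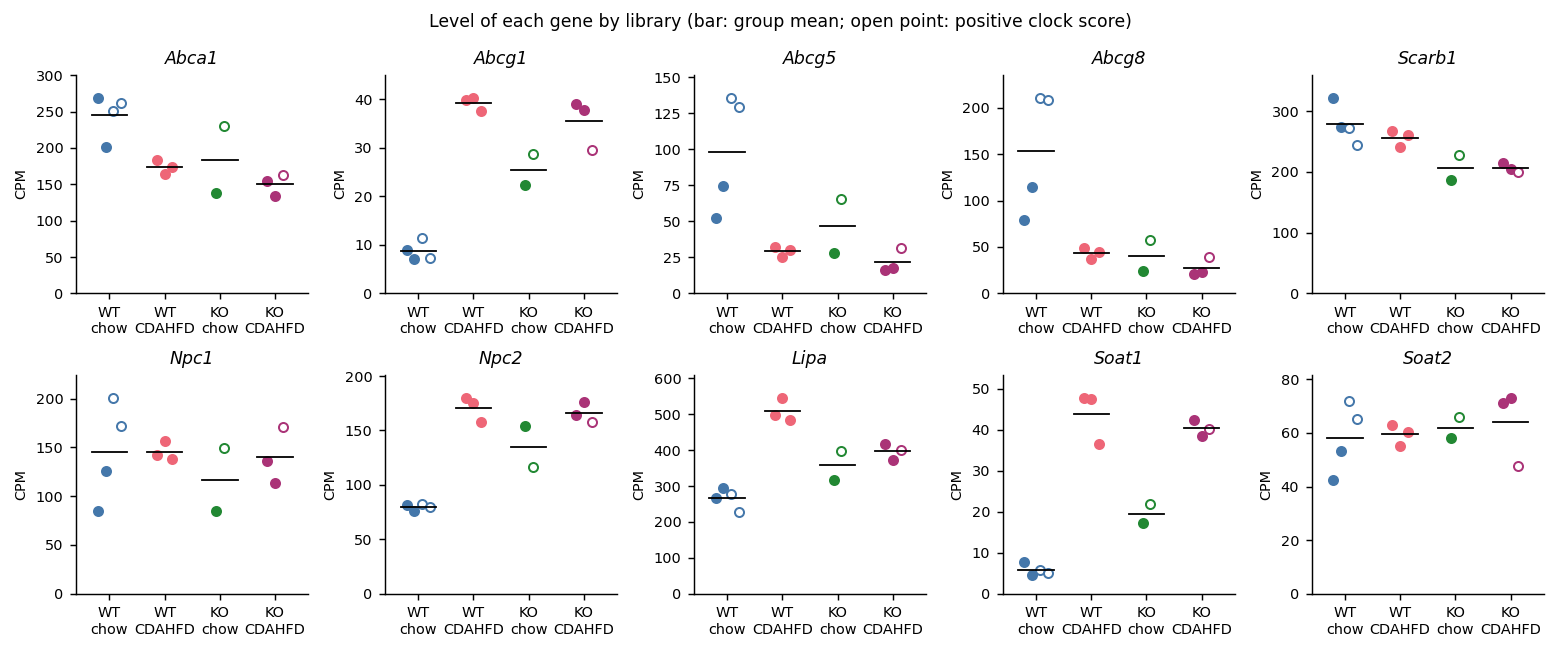
Level of each of the 10 genes in CPM (vertical axes, from 0) in the 12 libraries by group, with 1 point a library, bars at group means and open points for libraries with a clock score above 0. Soat1 and Abcg1 are lowest in all 4 WT chow libraries, and Abcg5 and Abcg8 spread widely within WT chow.

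On chow, KO liver differed from WT liver in 6 of the 10 genes, against 39.0% of all genes tested. Abcg1, Npc2, Lipa and Soat1 were higher (22.0% of all genes were called higher) and Abcg8 and Scarb1 lower (17.0% were called lower). In WT liver, CDAHFD changed 7 of the 10, against 51.1% of all genes. The same names Abcg1, Npc2, Lipa and Soat1 were higher (26.1% of all genes) and Abca1, Abcg5 and Abcg8 lower (25.0%). The CPM of the 2 groups did not overlap for 6 of the 10 genes in the first comparison (50.2% of all genes) and for 7 in the second (55.4%). Both comparisons use the same 4 WT chow libraries, so they are not independent. The median log2 fold change of the 10 genes was -0.11 in the first comparison and 0.02 in the second, beside 0.00 and -0.05 over all genes. Shares of called genes this high among all genes leave little to read from the counts alone, and the values of each gene follow.

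**Figure D2:**
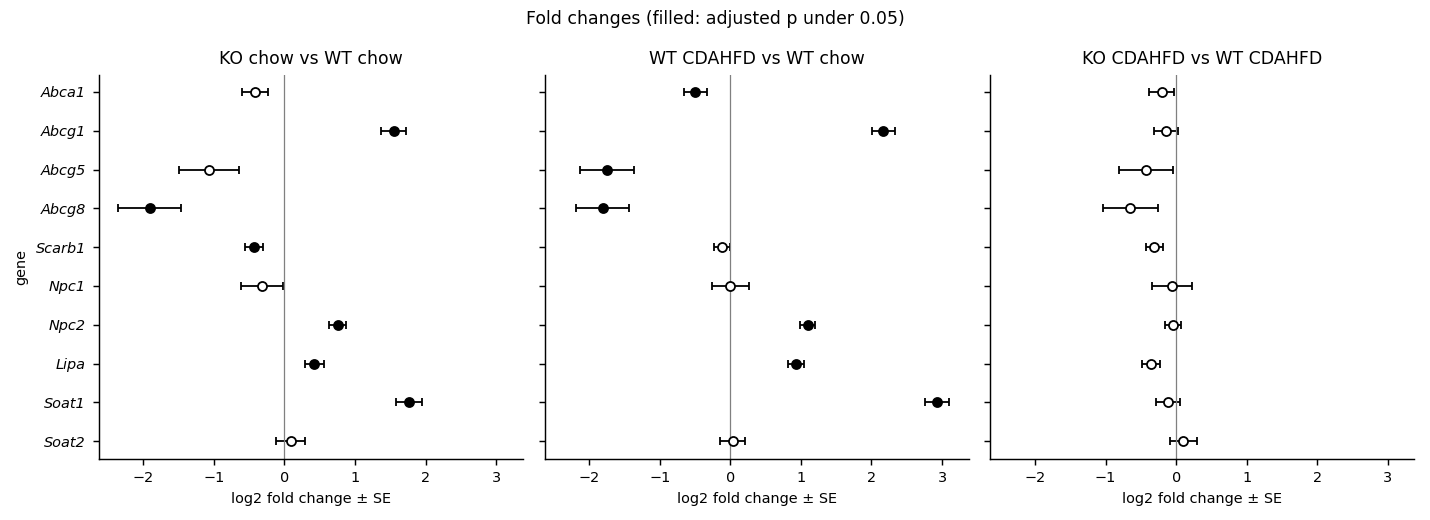
log2 fold change (horizontal axes) of each gene, with bars of 1 SE, in KO chow and WT CDAHFD against WT chow and in KO CDAHFD against WT CDAHFD; filled points passed an adjusted p of 0.05. Soat1 and Abcg1 have the highest values in both comparisons with WT chow, and no point is filled in the third.

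Soat1, the esterifying enzyme of macrophages and most non-hepatocyte cells, had the largest fold change of the 10 genes in WT CDAHFD against WT chow. It was at 7.6, 4.6, 5.8 and 5.0 CPM in WT chow, 47.7, 47.6 and 36.6 in WT CDAHFD, 17.2 and 21.9 in KO chow and 42.5, 38.4 and 40.3 in KO CDAHFD. The WT chow libraries lay below all others, and the KO chow libraries lay between these and the CDAHFD libraries with no overlap. Soat1 was 7.63-fold higher in WT CDAHFD than in WT chow (log2 2.93, SE 0.17, adjusted p = 5.56e-08) and 3.39-fold higher in KO chow (log2 1.76, SE 0.18, adjusted p = 1.1e-05). It was the only one of the 10 genes called between KO CDAHFD and KO chow (log2 1.05, SE 0.20, adjusted p = 0.0112; 6.19% of all genes were called, 3.76% higher) and between KO chow and WT CDAHFD (log2 -1.17, SE 0.20, adjusted p = 0.00536; 6.12% were called, 3.42% lower). In these comparisons 39.1% and 48.6% of all genes did not overlap between groups, and of the 10 genes 3 and 5 did not. Without KO chow replicate 1 neither of these passed (adjusted p = 0.12 and 0.0882), and KO chow then has 1 library, assumed to vary like the others.

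Soat2, the hepatocyte enzyme of the same reaction, had group means between 58.2 and 63.9 CPM, with a wider spread between libraries. It was at 42.4, 53.4, 71.9 and 65.1 CPM in WT chow, 63.0, 55.2 and 60.5 in WT CDAHFD, 58.0 and 65.8 in KO chow and 71.1, 73.0 and 47.8 in KO CDAHFD. All groups overlapped. Against WT chow its log2 fold change was 0.03 on CDAHFD (SE 0.18, adjusted p = 0.893) and 0.09 with the KO (SE 0.20, adjusted p = 0.76). The ratio of Soat1 to Soat2 counts within a library, which does not depend on scaling, was 0.106 in WT chow (SD 0.0501), 0.742 in WT CDAHFD (SD 0.129), 0.315 in KO chow (SD 0.0247) and 0.656 in KO CDAHFD (SD 0.166). It was higher on CDAHFD within genotype (exact permutation p = 0.00286, the smallest that 350 splits allow, adjusted p = 0.00888 over 8 tests). The ratio was tested with the levels of both genes known, so this p restates the separation of Soat1 by diet.

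Abcg1, which exports cholesterol to HDL and is high in macrophages, followed Soat1 in WT CDAHFD against WT chow. It was at 8.9, 7.2, 11.3 and 7.3 CPM in WT chow, 39.8, 40.3 and 37.5 in WT CDAHFD, 22.4 and 28.6 in KO chow and 39.0, 37.7 and 29.5 in KO CDAHFD. WT chow did not overlap any other group. It was 4.50-fold higher in WT CDAHFD (log2 2.17, SE 0.16, adjusted p = 4.0e-07) and 2.93-fold higher in KO chow (log2 1.55, SE 0.18, adjusted p = 2.59e-05).

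Abca1, the exporter to lipid-poor apolipoprotein A-I, went the other way. It was at 268.6, 200.9, 250.7 and 261.3 CPM in WT chow, 183.4, 163.9 and 173.6 in WT CDAHFD, 137.6 and 229.6 in KO chow and 154.9, 133.8 and 162.8 in KO CDAHFD. The WT CDAHFD libraries were all below the WT chow libraries, while the 2 KO chow libraries were far apart. It was 1.41-fold lower in WT CDAHFD (log2 -0.50, SE 0.16, adjusted p = 0.0213), and KO chow had a log2 fold change of -0.42 that did not pass (SE 0.19, adjusted p = 0.0934). The call in WT CDAHFD held in 8 of 12 runs that left out a library and was lost without WT CDAHFD replicate 2 or 3 or WT chow replicate 1 or 4 (highest adjusted p = 0.0788). It also depended on the scaling. With library totals alone, where the median of all genes shifts to 0.51, the value was 0.06 (adjusted p = 0.781).

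Abcg5 and Abcg8, the 2 parts of the biliary sterol transporter, were lower on CDAHFD in WT liver. Abcg5 was at 52.3, 74.4, 135.6 and 129.2 CPM in WT chow, 31.9, 25.5 and 30.1 in WT CDAHFD, 27.7 and 65.7 in KO chow and 15.9, 17.4 and 31.8 in KO CDAHFD. Abcg8 was at 78.5, 114.4, 210.4 and 208.7 CPM in WT chow, 49.0, 37.5 and 44.2 in WT CDAHFD, 24.1 and 57.1 in KO chow and 21.2, 23.0 and 39.1 in KO CDAHFD. For both genes every WT chow library was above every WT CDAHFD library, while KO chow and KO CDAHFD overlapped. Within WT chow, KO chow and KO CDAHFD, the libraries with a clock score above 0 were the higher ones for both genes. In WT CDAHFD against WT chow, Abcg5 was 3.36-fold lower (log2 -1.75, SE 0.38, adjusted p = 0.00192) and Abcg8 3.51-fold lower (log2 -1.81, SE 0.38, adjusted p = 0.00157). Without the libraries with a positive clock score, which are 2 of the 4 WT chow libraries and none of WT CDAHFD, these values were -1.12 and -1.15 (adjusted p = 3.62e-04 and 4.43e-04). In KO CDAHFD against KO chow neither passed, with -1.11 for Abcg5 (SE 0.42, adjusted p = 0.144) and -0.55 for Abcg8 (SE 0.43, adjusted p = 0.483). In KO chow against WT chow, Abcg8 was 3.76-fold lower (log2 -1.91, SE 0.45, adjusted p = 0.00469), a call lost without KO chow replicate 1 (log2 -1.40, adjusted p = 0.0722). Without KO chow replicate 2 the value was -2.66 (adjusted p = 0.0042). Abcg5 had a log2 fold change of -1.07 there that did not pass (SE 0.43, adjusted p = 0.0643), and it passed with the clock score as a covariate (log2 -0.96, adjusted p = 3.73e-04). Leaving out a library put this value of Abcg5 between -1.82 and -0.55.

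**Figure D3:**
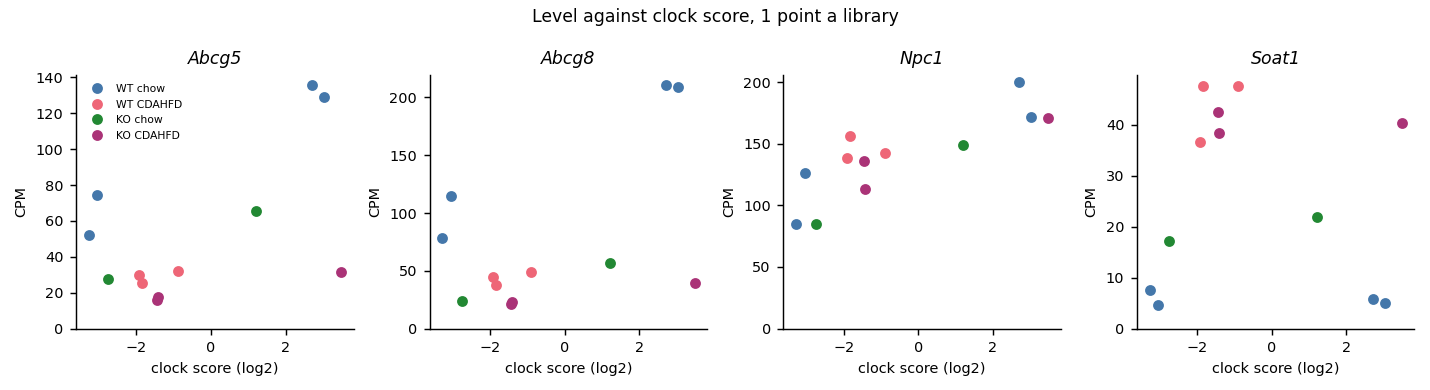
Level in CPM (vertical axes, from 0) of Abcg5, Abcg8, Npc1 and Soat1 against the clock score of the library (horizontal axes, log2), with 1 point a library coloured by group. Abcg5, Abcg8 and Npc1 are higher at positive scores within WT chow, and Soat1 separates by group instead.

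The balance between these 2 genes differed by genotype, by more on chow than on CDAHFD. The ratio of Abcg8 to Abcg5 counts was 1.55 in WT chow (SD 0.0499, range 1.5 to 1.62), 1.49 in WT CDAHFD (SD 0.0404, range 1.47 to 1.54) and 1.29 in KO CDAHFD (SD 0.0551, range 1.23 to 1.33). In KO chow it was 0.869 and 0.87. Every KO library was below every WT library, on either diet and at either sign of the clock score. KO was lower than WT by a log2 ratio of -0.84 on chow and -0.21 on CDAHFD. An exact two-sided permutation test of genotype within diet gave p = 0.00333, the smallest that its 300 splits allow (adjusted p = 0.00888 over 8 tests of 4 pairs of genes). The ratio was looked at after the levels had been seen, and a first form of the test that pooled the diets gave an exact permutation p = 0.00126 over 792 splits. The form within diet was chosen after that, since diet also differs between libraries. The test of diet within genotype did not pass for this ratio (exact permutation p = 0.0943, adjusted p = 0.137 over the same 8 tests). CDAHFD less chow was a log2 ratio of -0.05 in WT and 0.57 in KO. Reads in the 82 shared bases were not separated.

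**Figure D4:**
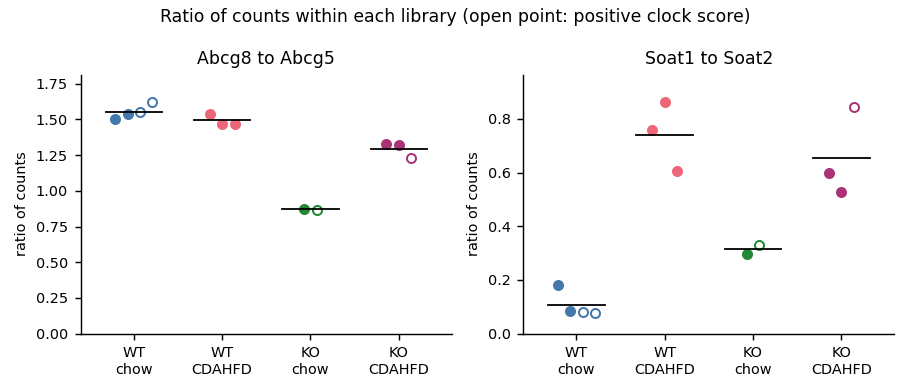
Ratio of counts within each library (vertical axes, from 0) for Abcg8 to Abcg5 and Soat1 to Soat2, by group, with bars at group means and open points for a clock score above 0. The KO chow libraries are at 0.869 and 0.87 for Abcg8 to Abcg5, below the 7 WT libraries between 1.47 and 1.62.

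Scarb1, the HDL receptor, was lower in KO liver. It was at 321.6, 274.5, 272.4 and 245.0 CPM in WT chow, 266.7, 241.4 and 260.8 in WT CDAHFD, 187.1 and 227.0 in KO chow and 214.3, 204.4 and 200.4 in KO CDAHFD. On each diet all KO libraries were below all WT libraries. In KO chow it was 1.34-fold lower than in WT chow (log2 -0.43, SE 0.13, adjusted p = 0.019), and in KO CDAHFD against WT CDAHFD the log2 fold change of -0.31 did not pass (SE 0.12, adjusted p = 0.462). WT CDAHFD against WT chow had -0.12 (SE 0.11, adjusted p = 0.398). The call on chow was lost without KO chow replicate 1 (adjusted p = 0.238) and with library totals alone, which put it at -0.03 (adjusted p = 0.88) where the median of all genes was 0.40.

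Of the lysosomal genes, Lipa and Npc2 passed in both comparisons with WT chow and Npc1 in neither. Lipa, the acid lipase, was at 267.3, 294.3, 277.4 and 227.0 CPM in WT chow, 497.3, 544.6 and 483.0 in WT CDAHFD, 316.0 and 398.8 in KO chow and 418.5, 372.0 and 400.8 in KO CDAHFD. The WT CDAHFD libraries were the highest and WT chow the lowest, with no overlap between WT chow and the rest. Lipa was 1.91-fold higher in WT CDAHFD (log2 0.93, SE 0.12, adjusted p = 3.05e-05) and 1.34-fold higher in KO chow (log2 0.42, SE 0.13, adjusted p = 0.0228). The call in KO chow was lost without KO chow replicate 2 (adjusted p = 0.268) or WT chow replicate 4 (adjusted p = 0.0501).

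Npc2, the soluble sterol carrier of the lysosome, was at 81.8, 76.3, 82.4 and 79.3 CPM in WT chow, 179.6, 174.9 and 157.8 in WT CDAHFD, 153.7 and 116.4 in KO chow and 163.8, 176.6 and 157.5 in KO CDAHFD. WT chow was lowest without overlap. It was 2.14-fold higher in WT CDAHFD (log2 1.09, SE 0.11, adjusted p = 3.27e-06) and 1.69-fold higher in KO chow (log2 0.76, SE 0.12, adjusted p = 2.87e-04). Npc1, the membrane protein it hands sterol to, lies at chr18:12189692-12236400 on the minus strand and shares 511 exonic bases with Rmc1 on the other strand, whose mean count was 13.6% of that of Npc1. Npc1 was at 85.2, 126.0, 200.5 and 171.7 CPM in WT chow, 142.3, 156.6 and 138.5 in WT CDAHFD, 84.7 and 149.3 in KO chow and 135.7, 113.7 and 171.0 in KO CDAHFD. All groups overlapped, and the high libraries in WT chow, KO chow and KO CDAHFD were those with a clock score above 0. Neither comparison with WT chow passed, with 0.00 on the log2 scale for WT CDAHFD (SE 0.26, adjusted p = 0.999) and -0.32 for KO chow (SE 0.30, adjusted p = 0.435). Without the 4 libraries with a clock score above 0, a choice made after seeing the data, the first value was 0.47 (adjusted p = 0.042). The ratio of Npc2 to Npc1 counts did not pass for genotype within diet or for diet within genotype (exact permutation p = 0.137 for each, 0.137 also after adjustment over the 8 tests). The first test averages over the diets and the second over the genotypes, so only an average difference between these 2 genes was not shown. CDAHFD less chow was a log2 ratio of 1.02 in WT and 0.012 in KO. In WT every CDAHFD library had a higher ratio than every chow library, while in KO the diets overlapped. The effect of diet on this ratio in WT alone was not tested.

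Under CDAHFD, none of the 10 genes passed between KO and WT by edgeR, where 0.357% of all genes did. Abca1, Scarb1 and Lipa did not overlap between the groups (20.8% of all genes did not). At an unadjusted p under 0.05 there were 2, against 8.77% of all genes, Scarb1 and Lipa (log2 -0.36, SE 0.13, adjusted p = 0.41 for Lipa). The lowest log2 fold change was that of Abcg8 (-0.65, SE 0.39, adjusted p = 0.694) and the highest that of Soat2 (0.10, SE 0.19, adjusted p = 0.922). With the clock score as a covariate, Abcg5 (-0.84, adjusted p = 0.0241) and Abcg8 (-1.05, adjusted p = 0.00684) passed. The interaction of genotype and diet, the diet effect in KO less that in WT, passed for 4 of the 10 genes, all below 0, where 23.1% of all genes passed and 14.5% did so below 0. These were Soat1 (log2 -1.88, SE 0.25, adjusted p = 1.98e-04), Abcg1 (-1.70, SE 0.25, adjusted p = 3.64e-04), Npc2 (-0.80, SE 0.17, adjusted p = 0.00391) and Lipa (-0.78, SE 0.18, adjusted p = 0.00838). These are the genes that were higher in both comparisons with WT chow. The interaction is also the genotype effect on CDAHFD, -0.04 to -0.36 for these genes, less that on chow. For Soat1, Abcg1 and Npc2 its sign therefore follows from KO chow lying above WT chow and is not a separate result. For Lipa the genotype effects on CDAHFD (-0.36) and on chow (0.42) both enter it, and it is no separate result either. For Abcg8 the interaction was above 0 and did not pass (log2 1.26, SE 0.57, adjusted p = 0.136). It passed without WT chow replicate 1. With the clock score as covariate, and without the filter, 1 of the 10 genes passed above 0. Without KO chow replicate 2, Lipa did not pass (adjusted p = 0.0528).

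Levels were also divided by the merged length of all annotated exons of a gene, such as 6780 bases for Lipa and 5438 for Npc2. The transcripts present may be shorter and were not measured, so the order of the genes depends on this length. On this scale Lipa was the highest of the 10 in WT CDAHFD (75.0 CPM per kb, SD 4.75) and Soat1 the lowest (4.49, SD 0.655). In WT chow, Abcg8 (40.8, SD 17.9), Lipa (39.3, SD 4.22) and Abcg5 (36.1, SD 15.1) led and lay within each other's spread. Soat2 was at 26.3 CPM per kb in WT chow (SD 5.89) and Soat1 at 0.588 (SD 0.138).

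The genes most like each of the 10 were found by the root mean square difference of log2 CPM, centred on each gene's mean, over the 12 libraries. Soat1 was nearest to Cd84 (0.121) and Trpv2 (0.126), and Abcg1 to Vav1 (0.127) and Fermt3 (0.138), which are genes known from blood cells. Abca1 was nearest to Apob (0.0837) and Atp8b1 (0.105). Abcg8 was nearest to Abcg5 (0.296) and then Klb (0.333), and Abcg5 to Klb (0.295) and then Abcg8 (0.296). Lipa was nearest to Map4 (0.12) and Adam10 (0.125), and Npc2 to Aldoa and Itm2c (both 0.112). Npc1 was nearest to Znrf3 (0.114), Scarb1 to Capn15 (0.0825) and Soat2 to Thap4 (0.118). The libraries share their depth and groups, so these distances describe the profiles only.

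Markers of several other liver cell types also differed between the groups, not all in the same order. The summed level of 6 markers of lipid-associated macrophages, such as Trem2 and Gpnmb, ran from 23.3 to 42.6 CPM in WT chow, 1298 to 1726 in WT CDAHFD, 355.1 to 387.4 in KO chow and 1381 to 1547 in KO CDAHFD. All 6 were higher in both comparisons with WT chow. Of 8 macrophage and Kupffer cell markers, 6 were higher in KO chow (22.0% of all genes) and 4 in WT CDAHFD (26.1%), where 1 was lower, with sums of 296.8 to 530.2 CPM in WT chow, 713.8 to 887.2 in WT CDAHFD, 886.5 to 1180 in KO chow and 511.3 to 875.4 in KO CDAHFD. For Soat1 and Abcg1, KO chow lay between WT chow and the CDAHFD groups, as it did for the lipid-associated list. It did so too for the mean sums of 8 stellate cell and fibroblast markers (WT chow 243.6 CPM, KO chow 1336, WT CDAHFD 1558, KO CDAHFD 1904) and of 4 cholangiocyte markers (13.98, 30.3, 48.5 and 77.2 CPM in that order). Of these, 5 of 8 stellate markers were higher in each comparison with WT chow, and 3 of 4 cholangiocyte markers in KO chow and 4 in WT CDAHFD. T and NK cell markers were higher for 4 of 5 in KO chow and 3 in WT CDAHFD, and both tested neutrophil markers were higher in each. Of 6 endothelial markers, 1 was higher in KO chow and 3 were lower in WT CDAHFD, and no B cell marker of 3 passed in either. The sum of the 7 hepatocyte markers was 81120 to 97250 CPM in WT chow, 40920 to 49590 in WT CDAHFD, 70160 to 82410 in KO chow and 39370 to 51760 in KO CDAHFD. Most of this sum was Alb, with a mean of 68660 CPM in WT chow. All 7 were lower in WT CDAHFD than in WT chow (25.0% of all genes). In KO chow 3 were lower (17.0%) and none was higher. In bulk liver, fewer cells of a type and less RNA per cell cannot be told apart, and the part of cell makeup in the levels of the 10 genes was not tested.

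**Figure D5:**
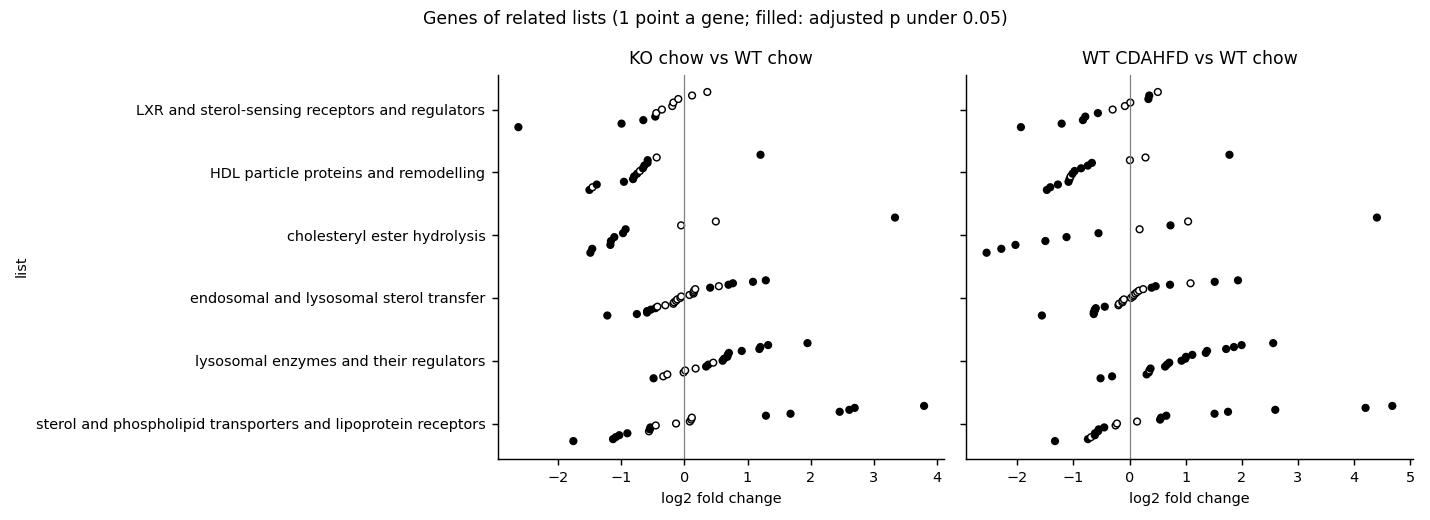
log2 fold change (horizontal axes) of the tested genes of 6 related lists in KO chow and WT CDAHFD against WT chow, with 1 point a gene and filled points at an adjusted p under 0.05; a gene with no count in WT chow is left out. The lysosomal enzymes lie mostly to the right of 0 and the HDL genes mostly to the left.

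The other genes of these pathways were taken from 6 lists. Their counts stand beside 22.0% of all genes higher and 17.0% lower in KO chow, and 26.1% higher and 25.0% lower in WT CDAHFD. Of 11 LXR-related receptors and regulators, none was higher and 4 were lower in KO chow, and 2 were higher and 5 lower in WT CDAHFD. Nr1h3, which encodes LXRα, was at 148.3 CPM in WT chow (SD 12.9) and 100.3 in WT CDAHFD (SD 5.74), a fall that passed (log2 -0.56, adjusted p = 0.00161), and at 115.7 in KO chow (log2 -0.36, adjusted p = 0.0522). Nr1h2, which encodes LXRβ, had -0.10 in KO chow (adjusted p = 0.526) and 0.01 in WT CDAHFD (adjusted p = 0.923). Rxra, the partner of LXR and PPARα, was lower in both (log2 -0.998 in KO chow and -0.831 in WT CDAHFD), as was Nr0b2, the bile acid-induced repressor SHP (-2.63 and -1.94). Srebf1, the regulator of fatty acid synthesis, was lower in WT CDAHFD (-1.21) and Srebf2, the regulator of sterol synthesis, higher (0.35).

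Of 14 genes for HDL proteins and HDL remodelling, 1 was higher and 10 were lower in each comparison with WT chow, where 17.0% and 25.0% of all genes were lower. Pltp, the phospholipid transfer protein, was the higher gene in both (log2 1.21 in KO chow and 1.78 in WT CDAHFD). Apoa2, a main HDL protein, was lower (-1.39 and -1.41), as was Lipc, the hepatic lipase (-1.51 and -1.28). Of 10 tested genes for cholesteryl ester and related ester hydrolysis, 1 was higher and 7 were lower in KO chow, and 2 were higher and 6 lower in WT CDAHFD, beside the same shares over all genes. The carboxylesterases Ces1e (-1.49 and -2.55) and Ces1f (-1.17 and -2.29) fell in both, and Lpl, the lipoprotein lipase, rose in both (3.34 and 4.41). Nceh1, a neutral cholesteryl ester hydrolase, was lower in KO chow (-0.93) and higher in WT CDAHFD (0.73).

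Of 19 lysosomal enzymes and their regulators, 12 were higher and 1 lower in KO chow, and 16 were higher and 2 lower in WT CDAHFD, where 22.0% and 26.1% of all genes were higher. Their median log2 fold change was 0.61 and 0.93, beside 0.00 and -0.05 over all genes. Ctsd, the protease cathepsin D, rose in both (1.20 and 1.997), while Gaa, the acid alpha-glucosidase, fell (-0.49 and -0.52). Tfe3, a regulator of lysosomal genes, was higher in KO chow (0.34, adjusted p = 0.0451) and WT CDAHFD (0.37, adjusted p = 0.0134), and Tfeb had -0.34 (adjusted p = 0.222) and 0.35 (adjusted p = 0.116). Of 25 genes for endosomal and lysosomal sterol transfer, 5 were higher and 6 lower in KO chow, and 5 were higher and 7 lower in WT CDAHFD, which is near the shares over all genes. Gramd1b, a carrier of plasma membrane cholesterol to the ER, rose (1.29 and 1.93) and Stard4, a cytosolic sterol carrier, fell (-1.22 and -1.56).

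Of 20 tested genes for other transporters and lipoprotein receptors, 7 were higher and 7 lower in KO chow, and 9 were higher and 7 lower in WT CDAHFD, where 39.0% and 51.1% of all genes passed in either direction. The scavenger receptors Cd36 (4.21 in WT CDAHFD) and Olr1 (4.68 in WT CDAHFD) rose in both. Olr1 had a mean of only 0.0873 CPM in WT chow (lowest 0) and 2.22 in WT CDAHFD, so its fold rests on few counts. Abca8a (-1.76 and -1.33), a transporter of the same family as Abca1, fell in both, as did Abcb11, the bile salt export pump (-0.54 and -0.74). Npc1l1, the sterol uptake protein of the gut, had no count in WT chow and a mean of 0.249 CPM in WT CDAHFD, a level of a few counts for which no fold is given.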

How the data were processed

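RNA was poly-A selected and sequenced from non-directional libraries. Per the labels and the submitters' processing notes, the authors checked reads with FastQC 0.11.5, aligned them to GRCm38 with STAR 2.7.3a and used DESeq2. They deposited raw read counts per Ensembl gene, without normalization. The counting program and annotation release are not given in the sources used here. Symbols came from GENCODE M21, which holds 52081 of the 55357 identifiers (94.1%).

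Counts were filtered with filterByExpr and TMM-scaled (factors 0.729 to 1.26), and a mean per group was fitted over all 12 libraries with edgeR 4.0.16 (glmQLFit, glmQLFTest) in R 4.3.3. A gene was called at an adjusted p under 0.05. Alternatives were DESeq2 1.42.0, DESeq2 size factors, library totals alone, no filter, each library left out, a replicate block and the clock score as covariate. Leaving out the libraries with a positive clock score was added after seeing the data. Intervals of counting were not needed, since counts of the 10 genes were at least 109.

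The fit was tested on simulated data. In a first run, with changed genes drawn from all genes tested, the share of the larger changes recovered fell short of the limit set for it. The run was then repeated on genes of 50 or more counts on average, with a stricter limit, which it met. It therefore says nothing of genes with fewer counts. Only a small part of the genes was changed, in equal numbers up and down. In the data 39.0% of genes were called in KO chow and 51.1% in WT CDAHFD against WT chow. The run therefore does not test the scaling under changes that wide.

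The genes, the related lists and the tests were chosen with earlier results of these data known. Named genes are the 10 genes, Ppara, Nr1h3, Nr1h2, Tfeb and Tfe3, up to 3 called genes with the largest change in each direction from each related list, of which some, chosen after their values were seen, are printed, and the nearest genes by profile. In the promoter windows 11 motif forms were searched in 3 rounds, of which 2 were replaced by shorter forms after matching none of the 10 genes. A block with another number for KO chow replicate 2 was added after seeing the data. Some genes of the related lists are not reported here.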

Additional observations from a re-analysis of the deposited data

Results flagged for a closer look

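The effect of CDAHFD differed between WT and KO liver, by the interaction of genotype and diet in edgeR's quasi-likelihood test, for 4 of the 10 genes. The difference, the effect in KO less that in WT, was -1.70 for Abcg1, -0.80 for Npc2, -0.78 for Lipa and -1.88 for Soat1 on the log2 scale. For all 4, KO chow was already above WT chow. The CDAHFD groups overlapped for Abcg1, Npc2 and Soat1, while for Lipa every KO CDAHFD library was below every WT CDAHFD library (log2 -0.36). A difference below 0 follows from these values. In WT chow, the only group of 4 or more libraries, no library was flagged as an outlier for these genes. The rule compared the gap at either end with the range, and with so few libraries it flags only a wide gap. Abcg1 was highest in replicate 3 (11.3 CPM) and Soat1 in replicate 1 (7.65 CPM).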

How the results depend on the processing

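Over all alternatives the number of the 10 genes called ran from 4 to 7 in KO chow against WT chow, from 6 to 8 in WT CDAHFD against WT chow and from 4 to 5 for the interaction. For KO CDAHFD against WT CDAHFD it was 2 with the clock score as covariate and 1 without the libraries with a positive clock score, against 0. For KO CDAHFD against KO chow it was 3 with the clock covariate, and 2 with library totals alone, without the filter and without the positive clock scores, against 1; leaving out a library gave 0 to 1. For KO chow against WT CDAHFD it was 4 with DESeq2 and with library totals alone, 2 with DESeq2 size factors and without the filter, 3 with the clock covariate and 5 without the positive clock scores, against 1; leaving out a library gave 0 to 2. The calls over all genes moved too, from 1063 to 2081 with DESeq2, 2483 with the clock covariate, 1267 with library totals alone and 2680 without the positive clock scores. With library totals alone, which shifts the median of all genes to 0.51 in WT CDAHFD against WT chow and 0.40 in KO chow against WT chow, the log2 fold changes that changed sign were 0.0585 for Abca1, 0.43 for Scarb1 (adjusted p = 0.00922) and 0.57 for Npc1 in the first, and 0.10 for Npc1 in the second. There Soat2 passed as higher in both (0.60 and 0.50), and Scarb1 in KO chow no longer passed (-0.03). Npc1 in WT CDAHFD against WT chow, near 0 in the main analysis, was 0.0405 with DESeq2 and with its size factors, 0.24 with the clock covariate, 0.0587 without the filter and 0.47 without the positive clock scores. Leaving out a library put it between -0.16 and 0.21, Npc1 in KO chow between -0.78 and 0.0532, Soat2 in KO chow between -0.0205 and 0.22, in WT CDAHFD between -0.0688 and 0.17, and in KO CDAHFD against WT CDAHFD between -0.0024 and 0.28, and Abcg8 in KO CDAHFD against KO chow between -1.02 and 0.20. Without the positive clock scores Lipa in KO chow (0.17, adjusted p = 0.412) and its interaction (-0.54, adjusted p = 0.0716) did not pass, and the cause of these changes was not tested.

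Replicate numbers were not taken to pair the libraries. Deviations from the group means of libraries with the same number correlated at -0.242 to 0.266 (median -0.0186, 3 of 15 pairs over 0.1), beside -0.266 to 0.245 for other pairs (median 0.0122, 7 of 38). With the replicate number as a block, 5 genes were called in KO chow against WT chow and 6 in WT CDAHFD against WT chow. Lipa in the first (0.34, adjusted p = 0.105) and Abca1 in the second (-0.47, adjusted p = 0.0698) did not pass, and Npc1 in the second was 0.17. The block changed no other call among the fold changes given for the 10 genes and Ppara. It was not read for the related lists, and calls over all genes in KO chow against WT chow fell from 6763 to 5433. The description of KO chow replicate 2 carries the number 3, and it correlated at 0.226 with WT chow 3, 0.0133 with WT CDAHFD 3 and 0.245 with KO CDAHFD 3. A block with that number, chosen after seeing the data, called 6 and 7 genes in the comparisons with WT chow. There Abcg5 in KO chow passed (-1.03, adjusted p = 0.013), Lipa in KO chow did not (0.37, adjusted p = 0.0736), and Npc1 in WT CDAHFD was 0.18. KO chow has 2 libraries, which limits every comparison that uses it.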
